A study of Rattus norvegicus with 12 samples.

Results

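The baseline difference between NFAT5KO and control cells was examined in 6 of the 12 RNA-seq libraries of the series, namely the 3 NFAT5KO and the 3 control libraries kept with -NaCl. UMR-106 is a rat osteosarcoma line with osteoblast-like properties. The NFAT5KO cells were edited with CRISPR-Cas9 and guides against the first exons of Nfat5 and grown as clones from sorted single cells. The headers of the NFAT5KO table name 1 clone, and the control cells carried the genotype label WT. Both groups received calcitriol and a medium with 20 mM less NaCl for 24 h. The study's methods call the 3 libraries of a group biological replicates, and p values measure the spread between them. The targeted edit and any other feature of that clone cannot be told apart. The libraries held 22798804, 16333851 and 21232480 reads in NFAT5KO cells and 19127881, 16379844 and 18476590 reads in control cells. NFAT5KO and control libraries lay at opposite ends of the first principal component, which took 63.6% of the variance over the 11510 genes whose mean normalized count was 50 or more.

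NFAT5 (TonEBP) is a transcription factor of the Rel family. It binds tonicity-responsive enhancers (TonE) and raises the transporters and enzymes that load cells with organic osmolytes when the medium becomes hypertonic. It is also present and partly nuclear in isotonic cells, and it has been linked to cartilage and bone matrix genes. The cells compared here were kept in the medium with less salt, without a hypertonic stimulus.

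Nfat5 itself (ENSRNOG00000011879, chromosome 19, 38446059 to 38533735) had normalized counts of 1092.5, 832.4 and 890.1 in NFAT5KO cells, against 3214.3, 2944.5 and 3073.8 in control cells. The normalized count is the number of reads of a gene scaled to the same effective depth (TMM) in the 6 libraries. All NFAT5KO libraries lay below all control libraries, and limma gave a log2 difference, NFAT5KO minus control, of -1.72 with a standard error of 0.09 (Benjamini-Hochberg adjusted p = 8.3e-07). The remaining reads are summed over the gene, so they do not show which exons they came from. The study reported complete loss of NFAT5 in its clone by immunoblot. Its qRT-PCR, with primers chosen for the deletion, did not detect Nfat5 mRNA in NFAT5KO cells. Of 4 NFAT family members tested, 1 was called, Nfat5 itself, and the median was -0.12. Nfatc3 had log2 difference -0.01 (adjusted p = 0.95) and Nfatc4 0.22 (adjusted p = 0.089), and the remaining member was not called. The 20 expressed genes nearest to Nfat5, 10 on each side, had a median log2 difference of -0.01, with 5 called higher and 3 called lower.

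The 2 genotypes differed at many genes in the low-salt medium. Of 16840 genes tested, 4026 (23.9%) passed at an adjusted p of 0.05, 1995 (11.8%) higher and 2031 (12.1%) lower in NFAT5KO cells. Most of these differences were small. Of the called genes, 61.9% differed by less than 0.5 on the log2 scale, and the median size was 0.39. Large differences lay mainly on the lower side. A called log2 difference of at least 1 was found for 169 genes (1%) that were higher and 515 (3.06%) that were lower in NFAT5KO cells. Among the genes with a mean of at least 50, 35 were lower by 3 or more, and 1, a gene model without an established symbol, was higher by as much. With library totals in place of TMM, 38.0% of the called genes were higher, against 49.6% in the main analysis, while the median of all genes moved only to -0.04. Without the mean-variance trend of the fit, so that the spread of a gene was not shrunk toward that of genes of like abundance, 2185 genes passed, and without replicate 3 of both groups 2566 did.

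**Figure D1:**
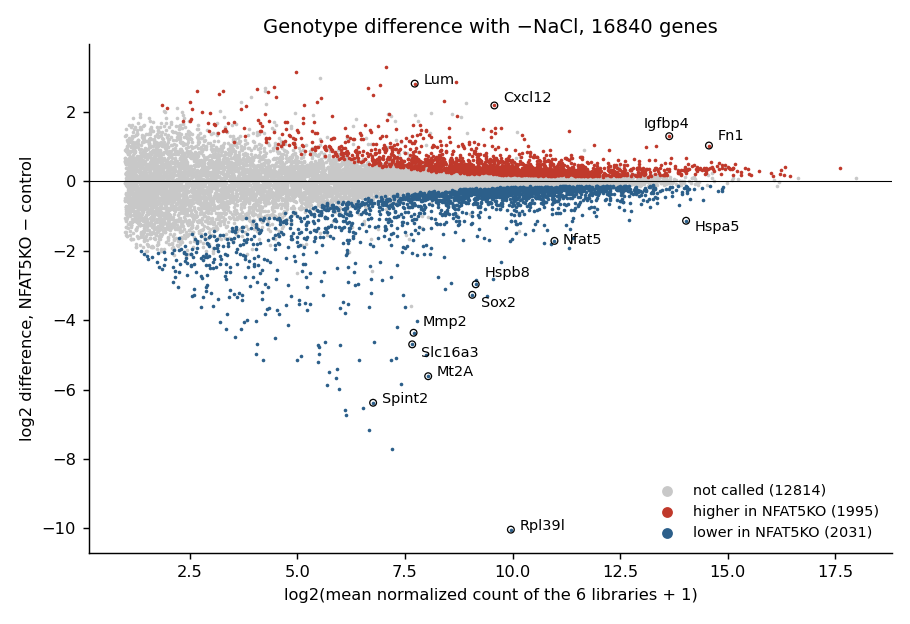
Log2 difference between NFAT5KO and control cells with -NaCl (vertical axis) against the log2 mean normalized count of the 6 libraries plus 1 (horizontal axis), 1 point per gene, colored by the call at an adjusted p of 0.05. The points reach -10.03 (Rpl39l) on the lower side, whereas among the labelled genes Lum is the highest at 2.80.

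Most of the strongly reduced genes were nearly silent in NFAT5KO cells. The 35 genes that were called with a log2 difference of -3 or below and a mean of at least 50 had group means between 0.392 and 178 normalized counts (median 8.12) in NFAT5KO cells, and between 101 and 1988 (median 211) in control cells. Of the 35, 3 were gene models without an established symbol. In 34 of the 35 the groups did not overlap, against 39.6% of all genes tested. The choice by call and size largely fixes this, so it is a description only. The exception, named after its values were seen, was Uchl3, a ubiquitin hydrolase, with 11.8, 18.8 and 4.51 counts in NFAT5KO cells, against 282, 12.5 and 290 in control cells. The fitted log2 value of a gene this close to 0 depends on the pseudocount, so reads are given beside it.

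Rpl39l, a testis-biased copy of a ribosomal protein of the large subunit, had 0.841, 0 and 2.71 normalized counts in NFAT5KO cells, against 2076.1, 1975.5 and 1912.9 in control cells. This is 4 reads against 5762, a log2 difference of -10.03 (standard error 0.38, adjusted p = 8.4e-08, limma), which was -8.36 with a pseudocount of 5. Rpl39l is nearly identical to Rpl39, and reads could be shared between them. The main Rpl39 entry (ENSRNOG00000043348) was present in all libraries and was called higher in NFAT5KO cells by 0.29. Mtrf1, a mitochondrial release factor, had 2 reads over the NFAT5KO libraries and 582 over the control libraries, a ratio per read of depth of 0.00307 (exact 95% interval 0.000371 to 0.0111, counting error only). Anxa8, an annexin, had 1 read against 398 (ratio 0.00225, interval 5.67e-05 to 0.0126), and Tm7sf3, a seven-transmembrane protein, 2 against 391 (ratio 0.00457, interval 0.000552 to 0.0166).

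Several of these genes act at the cell surface. Spint2, an inhibitor of membrane serine proteases, had 0, 3.53 and 2.71 normalized counts in NFAT5KO cells, against 215.6, 205.1 and 216.6 in control cells (log2 difference -6.38, adjusted p = 1.2e-05). Fxyd5, a regulatory subunit of the Na+/K+-ATPase, had 1.68, 0 and 1.80 counts in NFAT5KO cells, against 168.3, 200.6 and 174.7 in control cells (-6.54, adjusted p = 3.5e-06). Kcnt1, a Na+-activated K+ channel, had 4 reads over the NFAT5KO libraries and 354 over the control libraries. Dsc2, a desmosomal cadherin, had 6 against 339 reads and Fermt1 (kindlin-1), an integrin activator, 13 against 484 reads. No library of NFAT5KO cells reached the lowest control library for any of these genes. Groups without overlap were a condition for naming them, so this is no further result.

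Secreted and cytoplasmic proteins were among them too. Cthrc1, a secreted protein of matrix repair and bone, had 2.52, 9.42 and 4.51 counts in NFAT5KO cells, against 349.1, 329.8 and 321.9 in control cells (log2 difference -5.83, adjusted p = 2.2e-06). Mt2A, a metal-binding metallothionein, had 5.05, 9.42 and 17.1 counts in NFAT5KO cells, against 496.1, 562.1 and 481.3 in control cells (-5.62, adjusted p = 2.1e-06). Agfg2 and Armcx2 had log2 differences of -5.15 and -5.08, and Fam110d one of -5.67. Rhox5, an X-linked homeobox gene of the reproductive tract, had 5 reads over the NFAT5KO libraries and 297 over the control libraries. Rhox2 overlaps it on the other strand, and the strandedness of the counting is not given in the sources used here.

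A further set of genes was listed in the control table and not in the NFAT5KO table. In each table the listed gene with the fewest reads had 2 over its 6 libraries. Of 1356 genes listed in the control table only, 59 had 30 or more reads in the control libraries with -NaCl, whereas of 776 listed in the NFAT5KO table only, 1 had as many. The 5 of them with the most reads, chosen after their values were seen, were Rhox2 (317, 255 and 246 counts in control cells), Cox6b2, a testis-type subunit of cytochrome c oxidase (160, 151 and 151), Zfp518b, a zinc finger protein (137, 130 and 107), Sat1, which acetylates polyamines (89.9, 96.3 and 152), and Axl, a receptor tyrosine kinase (103, 87.3 and 90.9). They were not tested, and no fold is given for them.

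The promoters of the strongly reduced genes are shown as a description. Whether these genes share a cause of their reduction was not tested. The sequences run from 250 bases before to 50 after the gene start and come from RefSeq (assembly GRCr8). A promoter could be matched for 26 of the 35 genes, and 2 are printed, with the fewest and, together with Kcnt1, the most CG pairs among the 15 most reduced named genes. Cxcl12, one of the most increased genes, follows. The capitals mark CG pairs.
Fermt1, chr3:140666370-140666669, minus strand: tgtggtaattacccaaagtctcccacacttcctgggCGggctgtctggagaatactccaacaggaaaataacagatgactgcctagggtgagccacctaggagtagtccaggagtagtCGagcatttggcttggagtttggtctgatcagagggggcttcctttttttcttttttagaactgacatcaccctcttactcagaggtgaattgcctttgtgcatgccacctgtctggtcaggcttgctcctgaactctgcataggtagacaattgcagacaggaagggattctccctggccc
Mt2A, chr19:10838659-10838958, minus strand: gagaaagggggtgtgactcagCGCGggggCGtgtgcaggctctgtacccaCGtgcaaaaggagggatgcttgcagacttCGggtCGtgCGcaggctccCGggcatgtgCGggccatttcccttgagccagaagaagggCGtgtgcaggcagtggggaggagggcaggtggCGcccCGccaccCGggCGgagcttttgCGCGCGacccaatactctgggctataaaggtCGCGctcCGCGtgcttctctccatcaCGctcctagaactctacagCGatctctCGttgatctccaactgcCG
Cxcl12, chr4:152060531-152060830, plus strand: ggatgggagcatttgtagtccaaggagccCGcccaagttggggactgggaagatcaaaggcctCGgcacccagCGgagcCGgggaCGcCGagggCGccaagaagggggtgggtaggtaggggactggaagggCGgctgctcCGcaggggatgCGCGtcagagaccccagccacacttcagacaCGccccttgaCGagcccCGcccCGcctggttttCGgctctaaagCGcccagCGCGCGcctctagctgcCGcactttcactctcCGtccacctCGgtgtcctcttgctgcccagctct

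Fermt1 held 2 CG pairs, Mt2A 25 and Cxcl12 23 in these 300 bases. Over the 26 matched promoters the median was 15.5 CG pairs (quartiles 7 and 22), against 22 (15 and 29) over 8292 matched promoters of genes with a mean of at least 50. For genes higher by at least 1 it was 15 (8 and 28) over 56 promoters. For genes lower by at least 1 it was 19.5 (8.75 and 27.25) over 132. A median below that of all these genes was therefore not particular to the strongly reduced ones. CG-rich and CG-poor promoters were thus both among the strongly reduced genes. The NFAT5 site (TonE consensus, searched on both strands) was found in 0 of the 26, in 7 of 132 (5.30%) for genes lower by at least 1 and in 2 of 56 (3.57%) for genes higher by at least 1. It was in 3.30% of promoters of genes with a mean of at least 50 and in 5.96% of all promoters of the table. Its core TGGAAA was in 6 of 26 (23.1%), 26 of 132 (19.7%) and 12 of 56 (21.4%), against 15.7% and 22.4%. These matches are a description of the letters and say nothing of binding.

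The most increased genes rose less far than the most reduced ones fell. Lum (lumican), a small leucine-rich proteoglycan of collagen fibrils, had 489.5, 309.7 and 310.2 normalized counts in NFAT5KO cells, against 55.1, 40.8 and 58.2 in control cells (log2 difference 2.80, standard error 0.21, adjusted p = 6.9e-06). Cxcl12, the stromal chemokine that retains blood progenitors in bone marrow, had 1418.8, 1155.0 and 1167.8 in NFAT5KO cells, against 283.3, 325.3 and 222.8 in control cells (2.18, standard error 0.13, adjusted p = 2.2e-06). Mmp13, the main interstitial collagenase of bone and cartilage, had 719.1, 592.2 and 670.9 in NFAT5KO cells, against 178.9, 170.0 and 187.0 in control cells (1.88, standard error 0.10, adjusted p = 8.4e-07). In each of these the groups were apart by far more than their own spread. The genes were named for large differences without overlap, so this distance is no further result.

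Lcp2, an adaptor of leukocyte signalling, had 198.5, 180.1 and 137.1 counts in NFAT5KO cells, against 26.1, 26.1 and 24.5 in control cells (log2 difference 2.69). Fbln5, which assembles elastic fibers, Vit and Fam20a rose by 1.52, 1.51 and 1.60. The transcription regulators Runx1t1, Mab21l2 and Foxd2 rose by 1.75, 1.60 and 1.58, the growth-cone protein Gap43 by 1.88, the BMP-type ligand Gdf7 by 1.52 and the K+ channel subunit Kcnd3 by 1.52. Their adjusted p values lay between 1.9e-07 (Fbln5) and 3.6e-04 (Gap43). Mab21l2 lies within Lrba on the other strand. Atn1 had 317.9, 541.6 and 107.3 counts in NFAT5KO cells, against 89.0, 94.1 and 73.6 in control cells (1.63, adjusted p = 0.021). Its NFAT5KO libraries were far apart, and without NFAT5KO replicate 1 or 2 or control replicate 1 or 3 its adjusted p was 0.0519 to 0.0717. Over all 19 alternatives it ran from 1.8e-04 to 0.146.

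**Figure D2:**
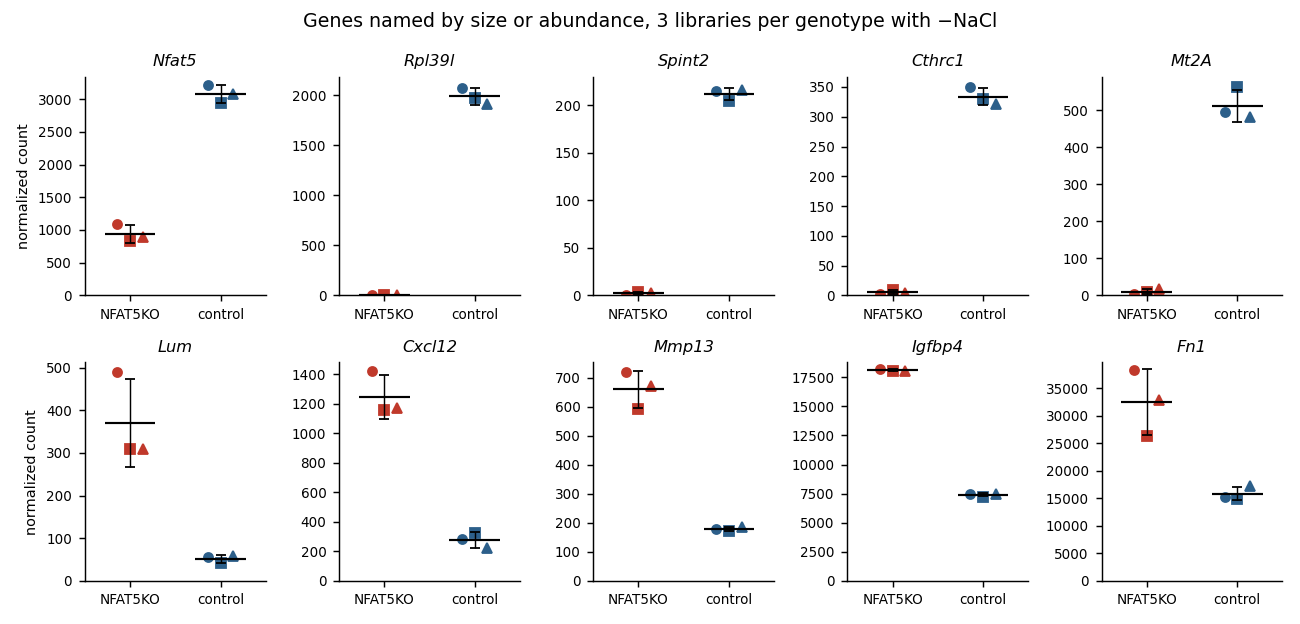
Normalized counts (vertical axis, from 0) of 10 genes in the 3 NFAT5KO (left, red) and 3 control (right, blue) libraries with -NaCl; circle, square and triangle are replicates 1, 2 and 3, and the line and bar are mean and SD. Spint2 stays at or below 3.53 in NFAT5KO cells and above 205 in control cells, and Igfbp4 lies at 18047 or more in NFAT5KO cells and at 7506 or less in control cells.

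The 10 most abundant called genes that differed by at least 1 went in both directions. Fn1 (fibronectin), which organizes the pericellular matrix, had 38351, 26342 and 32883 counts in NFAT5KO cells, against 15323, 14971 and 17254 in control cells (log2 difference 1.02, adjusted p = 9.9e-05). Igfbp4, an IGF-binding protein secreted by osteoblasts, had 18226, 18065 and 18047 in NFAT5KO cells, against 7506, 7246 and 7436 in control cells (1.29, adjusted p = 2.2e-08). Il33, a nuclear alarmin, had 12829, 14776 and 13983 in NFAT5KO cells, against 7088, 7284 and 6360 in control cells (1.00, adjusted p = 3.0e-06). Tspan11, a tetraspanin, rose by 1.04. Col6a3, a chain of beaded-filament collagen VI, fell to 1520, 1359 and 1428 counts in NFAT5KO cells, against 3811, 3651 and 3756 in control cells (-1.38, adjusted p = 8.4e-08). The other 5 of the 10 most abundant such genes, Hspa5, Slc7a1, Psat1, Ddit3 and Yars, were lower and belong to the stress programs described next.

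ATF4 is a transcription factor that raises amino acid transport, synthesis and tRNA charging when translation initiation is restrained by stress kinases. Of 35 tested ATF4 targets and amino acid genes, 29 were called lower and 0 higher in NFAT5KO cells, with a median log2 difference of -0.86, against a median of -0.00 over all genes tested and 12.1% of all genes called lower. Asns, asparagine synthetase, had 544.1, 701.7 and 1045.2 counts in NFAT5KO cells, against 1999.7, 2118.3 and 3820.8 in control cells (-1.78, adjusted p = 5.6e-04). Pycr1 and Psat1, enzymes of proline and serine synthesis, fell by 1.16 and 1.06 on the log2 scale, and Phgdh, which opens the serine pathway, fell by 0.75. Yars, a tRNA synthetase, and Slc7a1, a cationic amino acid transporter, fell by 1.14 and 1.12. Without the mean-variance trend 6 of the 35 were called lower and 0 higher, and the call of Slc7a1 was then lost (adjusted p = 0.0754).

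Ddit3 (CHOP), the transcription factor at the end of the stress pathway, had 753.5, 876.0 and 2403.2 counts in NFAT5KO cells, against 2451.3, 2858.3 and 6852.6 in control cells. Each NFAT5KO library was below each control library, although NFAT5KO replicate 3 came within 50 counts of the lowest control library. The log2 difference was -1.64 (adjusted p = 0.018). Its adjusted p was 0.0706 without NFAT5KO replicate 1, 0.0737 without NFAT5KO replicate 2 and 0.0557 without control replicate 3, and over all 19 alternatives it ran from 3.0e-08 to 0.146. Ddit3 overlaps Mars on the other strand.

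Of 26 tested chaperones and folding enzymes of the endoplasmic reticulum, 14 were called lower and 0 higher, with a median of -0.34. Hspa5 (BiP), the luminal Hsp70, had 7817, 8920 and 14036 counts in NFAT5KO cells, against 16618, 18176 and 34840 in control cells (-1.14, adjusted p = 0.0092). Sdf2l1 had 387.7, 461.5 and 612.3 in NFAT5KO cells, against 1285.1, 1264.8 and 2112.2 in control cells (-1.65, adjusted p = 1.9e-04). Dnajb11, a cochaperone, fell by 0.83 and Fkbp10, a collagen chaperone, by 0.25. Sdf2l1 and Dnajb11 lie in a low stretch of chromosome 11 described below. The number lower was 9 without NFAT5KO replicate 1, also 9 without NFAT5KO replicate 2, and 2 without the mean-variance trend, where the adjusted p of Hspa5 was 0.112. In both genotypes replicate 3 had the highest counts of the 10 genes plotted by library, and its part in the result was not tested. Without replicate 3 of both groups, 27 ATF4 targets (median -0.82) and 15 chaperones (median -0.22) were called lower and 0 higher.

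**Figure D3:**
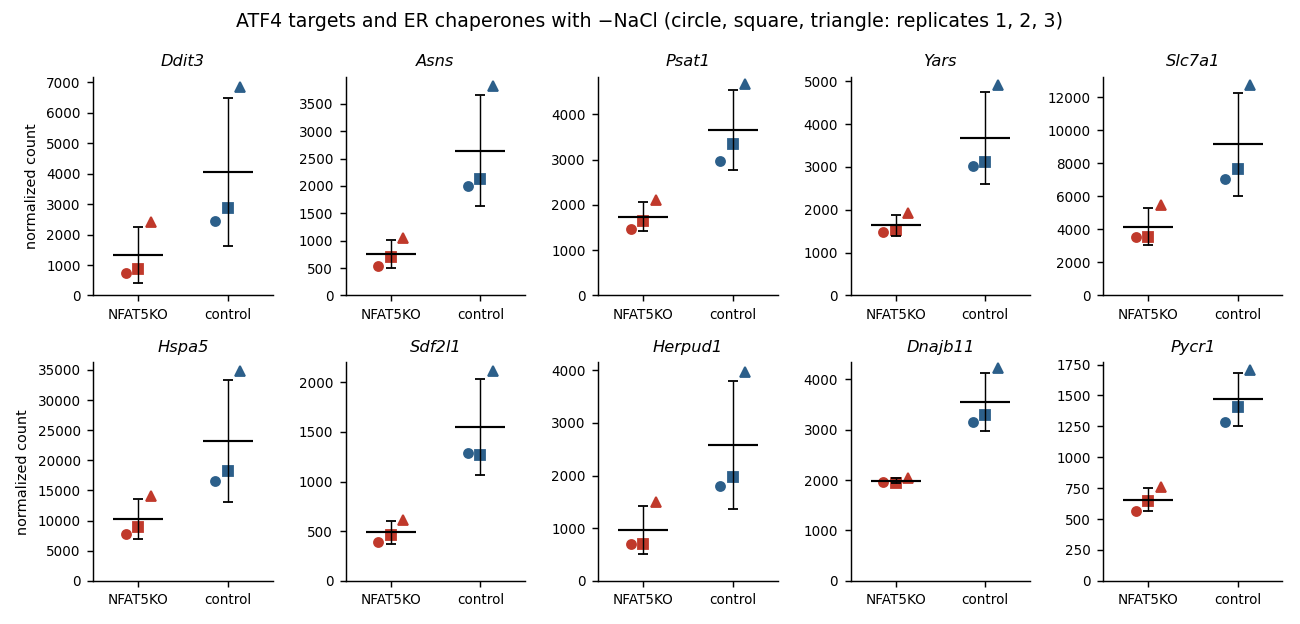
Normalized counts (vertical axis, from 0) of 10 ATF4 targets and endoplasmic reticulum genes in NFAT5KO (left, red) and control (right, blue) libraries with -NaCl; circle, square and triangle are replicates 1, 2 and 3, and the line and bar are mean and SD. Replicate 3 is the highest library of its group in every panel, and its values of Hspa5 are 14036 in NFAT5KO cells and 34840 in control cells.

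Other metabolic lists had more members lower than higher, whereas 12.1% of all genes tested were called lower and 11.8% higher. Of 38 glycolysis and hypoxia genes, 23 were called lower and 3 higher (median -0.28), and 13 and 0 without the mean-variance trend. Slc16a3 (MCT4), which exports lactate, had 17.7, 8.24 and 18.0 counts in NFAT5KO cells, against 394.5, 457.9 and 316.8 in control cells (-4.70, adjusted p = 2.2e-06). Car12, a membrane carbonic anhydrase, fell by 2.99, Hk2, a hexokinase, by 0.65, and Eno1, the glycolytic enolase, by 0.35. Of 33 genes of sterol and fatty acid synthesis, 14 were called lower and 1 higher (median -0.13), among them Hsd17b7 (-0.63) and Idi1 (-0.64), with 9 lower without NFAT5KO replicate 2, 9 without control replicate 1 and 7 without the trend. Hsd17b7 and Idi1 each overlap another gene on the other strand. Of 34 NRF2, glutathione and iron genes, 11 were called lower and 2 higher, with Gpx1, a glutathione peroxidase, at -0.61 and Slc7a11, the cystine transporter that ATF4 also drives, at -2.19. The NRF2 count was 5 without NFAT5KO replicate 1 or control replicate 2, 7 without NFAT5KO replicate 3 or control replicate 1, and 3 without the trend.

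Ribosomal protein genes moved the other way. Of 77 tested, 62 were called higher and 2 lower (Rpl39l and Rps27l, -0.39), with a median of 0.35, and the number higher was 57 to 64 without single libraries, 61 with equal library totals and 46 without the mean-variance trend. Rps7 had 32034, 34548 and 34270 counts in NFAT5KO cells, against 22806, 23721 and 24397 in control cells (0.51, adjusted p = 4.1e-05), and Rpl24 and Rps4x rose by 0.53 each. These genes have many processed copies in the genome, and how the counting split such reads is not given in the sources used here. Of 44 mitosis and spindle genes, 17 were called higher and 0 lower (median 0.11), each by a small amount, such as 0.29 for Kif11, a spindle motor, and 0.27 for Top2a. The number was 11 without replicate 3 of both groups and 7 without the trend. DNA replication genes gave 5 higher and 5 lower of 45, or 11.1% each, against 11.8% and 12.1% of all genes tested. Rfc4, Mcm10, Cdc45 and Mcm4 were the lower ones with the smallest p, and all 4 are in low stretches of chromosomes 11 and 17 described below.

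**Figure D4:**
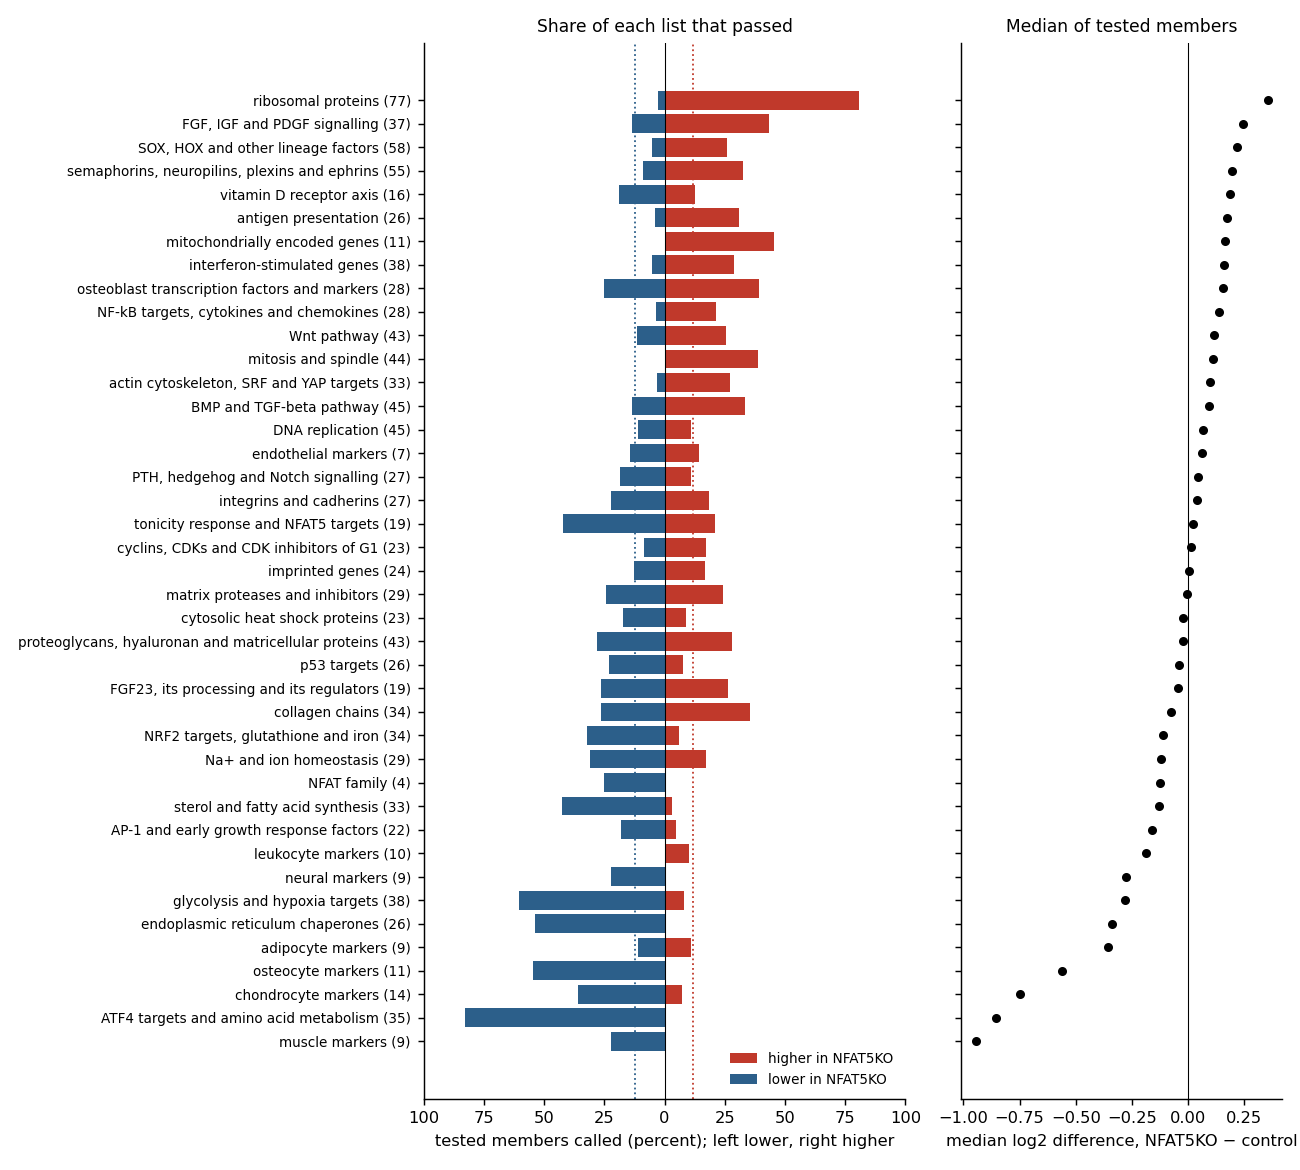
For 41 gene lists, the percent of tested members called lower (left, blue) or higher (right, red) in NFAT5KO cells with -NaCl and, in the right panel, the median log2 difference (NFAT5KO minus control); the number tested is in parentheses and dotted lines mark the 12.1% and 11.8% of all genes called lower and higher. Ribosomal proteins (0.35) lie at the upper end, and ATF4 targets (-0.86) near the lower end, where lists of under 15 genes of other cell types also lie.

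The defining osteoblast markers were present in both genotypes. Of 9 defining markers, Runx2, Sp7, Alpl, Col1a1, Col1a2, Spp1, Ibsp and Sparc had 2365 or more counts in each of the 6 libraries. Bglap (osteocalcin) had 10.9, 9.42 and 14.4 in NFAT5KO cells, against 8.70, 2.27 and 6.13 in control cells, so it was close to the limit of detection. Of the 9, 4 were called higher and 2 lower. Runx2, the master regulator of osteoblasts, rose by 0.27 (adjusted p = 0.0073), Spp1 (osteopontin) by 0.68 (adjusted p = 3.4e-04), and Col1a2 and Col1a1, the chains of type I collagen, by 0.63 and 0.22 (adjusted p = 0.0079 and 0.025). Alpl, alkaline phosphatase, fell by 0.17 (adjusted p = 0.029). Ibsp, bone sialoprotein, had 10537, 6509 and 7246 counts in NFAT5KO cells, against 11873, 11231 and 11183 in control cells (-0.53, adjusted p = 0.016), and its adjusted p was 0.056 to 0.0639 without NFAT5KO replicate 2 or 3 or control replicate 1. Among the wider list of 28 osteoblast factors and markers, 11 were called higher and 7 lower, against 11.8% and 12.1% of all genes. Bmp2 and Cdh11, an osteoblast cadherin, rose by 0.59 and 0.52, and Phospho1, a phosphatase of mineralization, fell by 1.14. The number lower was 3 without NFAT5KO replicate 2 or 3, 4 without control replicate 1 and 1 without the mean-variance trend.

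Markers of osteocytes, the cells that osteoblasts become once embedded in bone, were lower. Of 11 tested, 6 were called lower and 0 higher, against 12.1% and 11.8% of all genes tested. Sost (sclerostin), an inhibitor of Wnt signalling, had 739.2, 735.9 and 841.4 counts in NFAT5KO cells, against 2046.2, 2035.5 and 2107.1 in control cells (-1.42, adjusted p = 2.7e-07). Phex, an endopeptidase whose loss raises FGF23, had 47.1, 36.5 and 37.9 in NFAT5KO cells, against 93.8, 125.8 and 119.6 in control cells (-1.46, adjusted p = 5.0e-04). Fam20c, the kinase of secreted proteins, and Dmp1, a mineral-binding phosphoprotein, fell by 0.90 and 0.56, and Fam20c lies in a low stretch described below. The other called members were Capg and Cd44, outside the rule for named genes. Fewer cells of one state and less RNA per cell cannot be told apart in bulk libraries. Fgf23 had 10.1, 5.89 and 9.92 counts in NFAT5KO cells, against 1.93, 11.3 and 14.3 in control cells, and with 28 and 26 reads in all no difference was detectable at this depth (adjusted p = 0.86). Its receptor Fgfr1 rose by 0.49 (adjusted p = 1.2e-04) and Enpp1, which makes pyrophosphate, by 0.76 (adjusted p = 4.1e-05). Ankh, the pyrophosphate exporter, and Pth1r, the parathyroid hormone receptor, had log2 differences of -0.12 and -0.15 (adjusted p = 0.16 and 0.14).

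Of 14 chondrocyte markers, 5 were called lower in NFAT5KO cells and 1 higher, against 12.1% and 11.8% of all genes tested. Acan (aggrecan) had 4.20, 16.5 and 14.4 counts in NFAT5KO cells, against 135.4, 111.1 and 143.1 in control cells (-3.54, adjusted p = 1.7e-04). Col11a2, Comp and Matn3 fell by 1.71, 1.33 and 1.08. The summed counts of the list were 3462 to 3742 in NFAT5KO cells and 3880 to 4083 in control cells. Leukocyte markers summed to 363 to 432 counts in NFAT5KO cells and 235 to 249 in control cells, and 1 of 10, Lcp2, was called. The remaining leukocyte markers had no call in either direction, and Ptprc, which encodes CD45, was listed in the control table only. The call on the higher side of the chondrocyte list was lost with edgeR, with equal library totals and without NFAT5KO replicate 1 or 3 or control replicate 1 or 3. Endothelial markers gave 1 higher and 1 lower of 7, muscle markers 2 lower of 9, neural markers 2 lower of 9, and adipocyte markers 1 higher, the lipase Lpl, and 1 lower of 9. Several of these calls rested on single libraries. Both neural calls were lost without NFAT5KO replicate 2 or 3 or control replicate 1 or 2, both muscle calls without control replicate 2, and the lower adipocyte call without NFAT5KO replicate 1 or 3 or control replicate 2 or 3. The endothelial call on the higher side was lost without NFAT5KO replicate 3. That on the lower side was lost without NFAT5KO replicate 2 or control replicate 1 or 2, and with DESeq2. The call of Lpl was kept in each of these. The part of such markers in the results above was not tested.

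Matrix genes changed in both directions, whereas over all genes tested 11.8% were called higher and 12.1% lower. Of 34 collagen chains, 12 were called higher and 9 lower, of 43 proteoglycans and matricellular proteins 12 and 12, and of 29 matrix proteases and inhibitors 7 and 7. Fmod (fibromodulin), which regulates collagen fibrils, had 3562, 3868 and 3659 counts in NFAT5KO cells, against 1370, 1399 and 1311 in control cells (1.44, adjusted p = 6.1e-08). Col16a1 rose by 0.51, whereas Col22a1 fell by 0.98. Mmp2 (gelatinase A) had 16.8, 16.5 and 21.6 counts in NFAT5KO cells, against 413.9, 403.5 and 367.9 in control cells (-4.37, adjusted p = 1.0e-07). Mmp9 fell by 0.89 while Mmp13 rose, as given above. Itga10, a collagen-binding integrin of cartilage, fell to 622.3, 587.5 and 750.3 counts in NFAT5KO cells, against 1471.8, 1596.9 and 1521.5 in control cells (-1.23, adjusted p = 5.5e-06).

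Growth factor lists had more members higher, whereas over all genes tested 11.8% were called higher and 12.1% lower. Of 37 genes of FGF, IGF and PDGF signalling, 16 were called higher and 5 lower (median 0.25). Igf2 had 3540, 3178 and 3173 counts in NFAT5KO cells, against 2012, 1942 and 1932 in control cells (0.75, adjusted p = 6.6e-06). Igfbp7 rose by 0.81 and shares its locus with Polr2b and an Rpl39 copy on the other strand, and the ligand Pdgfa, which lies in a low stretch of chromosome 12 described below, fell by 1.08. Of 45 BMP and TGF-beta genes, 15 were higher and 6 lower, with Bmp5 and Inhbb at 1.28 and 1.37 and Bmp7 at -0.68. Of 55 semaphorins, ephrins and their receptors, 18 were higher and 5 lower, with the netrin Ntn1 at 0.94, the ephrin receptors Epha3 and Epha4 at 1.03 and 0.80 and Sema3b at -1.19. Of 43 Wnt genes 11 were higher and 5 lower, and the 11.6% lower was near the share over all genes. Wnt5a, Wnt4 and the antagonist Sostdc1 had log2 differences of 0.87, -1.08 and 0.89. The Wnt count of 11 was 6 without replicate 3 of both groups.

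Lineage factors gave 15 higher and 3 lower of 58, against 11.8% and 12.1% of all genes tested. Sox2, a stem cell factor, had 90.8, 87.1 and 116.3 counts in NFAT5KO cells, against 803.6, 846.6 and 1260.0 in control cells (-3.27, adjusted p = 8.5e-07). Hoxd10, a distal limb Hox gene, had 82.4, 71.8 and 78.5 in NFAT5KO cells, against 11.6, 15.9 and 14.3 in control cells (2.40, adjusted p = 7.7e-05), and Pitx1, a hindlimb factor, rose by 0.99. Sox18 fell by 1.49. Interferon-stimulated genes gave 11 higher and 2 lower of 38, with Ifitm3 at 0.85 and Irf1 at 0.65, and the immunoproteasome subunit Psmb9 at 0.74. The 2 lower calls were 0 without replicate 3 of both groups. Antigen presentation genes gave 8 higher and 1 lower of 26, among them B2m, the light chain of class I molecules, at 0.37 and Nlrc5, its transactivator, at 1.24.

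Genes of tonicity and Na+ handling, the field in which NFAT5 is best known, were divided in this low-salt medium. Of 19 tested tonicity genes and NFAT5 targets, 4 were called higher and 8 lower, against 11.8% and 12.1% of all genes. Their median of 0.02 turned to -0.02 with equal library totals. Itga10 and Nup210, a nuclear pore protein, fell by 1.23 each, while Igfbp7 and the water channel Aqp1 rose by 0.81 and 0.37. Of 29 Na+ and ion genes, 5 were higher and 9 lower. Trpv4, an osmosensitive cation channel, fell by 0.50, and the K+-Cl- cotransporter Slc12a7 rose by 0.61. Sgk1, a kinase of epithelial Na+ transport, had 291.0, 231.9 and 270.5 counts in NFAT5KO cells, against 151.8, 150.7 and 187.0 in control cells (0.69, adjusted p = 0.0033). Pnpla6, Nfkbia and Foxo1 had adjusted p values of 0.85, 0.69 and 0.34, and Akt1 and Snrk rose by 0.25 and 0.35. Fxyd2, a regulatory subunit of the Na+/K+-ATPase, had 2 reads over the NFAT5KO libraries and 26 over the control libraries (ratio 0.0688, exact 95% interval 0.00791 to 0.275). Its adjusted p was 0.017, and the call was lost without NFAT5KO replicate 3 (0.0570) or control replicate 1 (0.0861).

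Among stress and cell cycle regulators, the small heat shock protein Hspb8 had 121.1, 133.0 and 126.2 counts in NFAT5KO cells, against 1050.2, 1032.5 and 922.7 in control cells (-2.97, adjusted p = 2.2e-08). Hspb1 and Cryab fell by 1.39 each, whereas the cytosolic heat shock list as a whole had 4 of 23 lower and 2 higher. Over all genes tested, 12.1% were called lower and 11.8% higher. Cdkn1a (p21), the inhibitor of cyclin-dependent kinases, had 242.2, 226.1 and 303.0 in NFAT5KO cells, against 575.4, 547.4 and 701.0 in control cells (-1.24, adjusted p = 6.6e-05). Of 26 p53 targets 6 were lower and 2 higher, with Ccng2 at 0.70. Of 22 AP-1 and early growth response genes 4 were lower and 1 higher, with Egr1 and Atf3 at -1.61 and -1.25 and Fosl2 at 0.74, and 1 and 0 without the mean-variance trend. Of 27 PTH, hedgehog and Notch genes 3 were higher and 5 lower, with the receptor Notch3 at 0.45 and the Notch target Hey1 at -1.42. The share higher in that list, 11.1%, was near that of all genes. Of 33 actin, SRF and YAP genes 9 were higher and 1 lower, among them Myl9 at 0.87 and Tagln2 at -0.80. Of 11 mitochondrially encoded genes 5 were higher and 0 lower, by 0.15 to 0.34, with 3 higher under equal library totals, 2 without NFAT5KO replicate 1, 3 without NFAT5KO replicate 2 or control replicate 1 or 2, and 0 without the trend.

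The differences were not spread evenly over the genome. Running medians of 25 neighbouring genes with a mean of at least 50 ran from -0.54 to 0.32 over 10977 windows, with 5% of the windows below -0.14 and 5% above 0.13. Windows below -0.3, a limit set after the values were seen, formed 5 stretches on chromosomes 4, 11, 12, 13 and 17. These stretches were chosen by the differences, so their values with -NaCl are a description only. They held 336 genes, 2.92% of those with a mean of at least 50, and 200 of the 1701 such genes called lower (11.8%).

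The largest stretch lay on chromosome 11 from 79205730 to 90406797 and reached the last of the 291 expressed genes of that chromosome. Its 90 genes had a median of -0.47, which corresponds to 72.4% of the control level, and 84 of them were below 0. The medians over these genes were -0.46, -0.48 and -0.47 in the 3 NFAT5KO libraries and 0.01, 0.00 and -0.00 in the control libraries, all relative to the control mean. On chromosome 17 a stretch of 73 genes from 66210461 to 90756048 also reached the last expressed gene, with a median of -0.44 and library medians of -0.43, -0.42 and -0.43 in NFAT5KO cells. Stretches of 76 genes on chromosome 13, 53 on chromosome 12 and 44 on chromosome 4 had medians of -0.34, -0.29 and -0.30. Coordinates are as the tables give them, and their build is not given in the sources used here.

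The libraries with +NaCl, which took no part in choosing the stretches but came from the same cell lines, gave like values. The medians there were -0.40 on chromosome 11, -0.41 on chromosome 17, -0.33 on chromosome 13, -0.28 on chromosome 12 and -0.32 on chromosome 4, against 0.00 over all genes with a mean of at least 50. In those libraries 60 of the 90 genes on chromosome 11 and 49 of the 73 on chromosome 17 were called lower, against 21.6% of all genes with a mean of at least 50. Genes in the low windows included Psmd2, a proteasome subunit, with 8362, 8084 and 7967 counts in NFAT5KO cells, against 13028, 12770 and 12226 in control cells (-0.64, adjusted p = 4.6e-06). Prkdc, the catalytic subunit of the DNA-dependent protein kinase, and Parl, a mitochondrial protease, fell by 0.86 each and Dnm1l, which divides mitochondria, by 0.47. On chromosome 17 Bmi1, a Polycomb protein, and Commd3 fell by 0.69 each. Windows on the high side had medians nearer 0. The highest was of 25 genes on chromosome 1 from 265318526 to 266859965 with a median of 0.32 and 14 called higher, among them Nfkb2 (0.59), Ldb1 (0.34) and Actr1a (0.32).

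**Figure D5:**
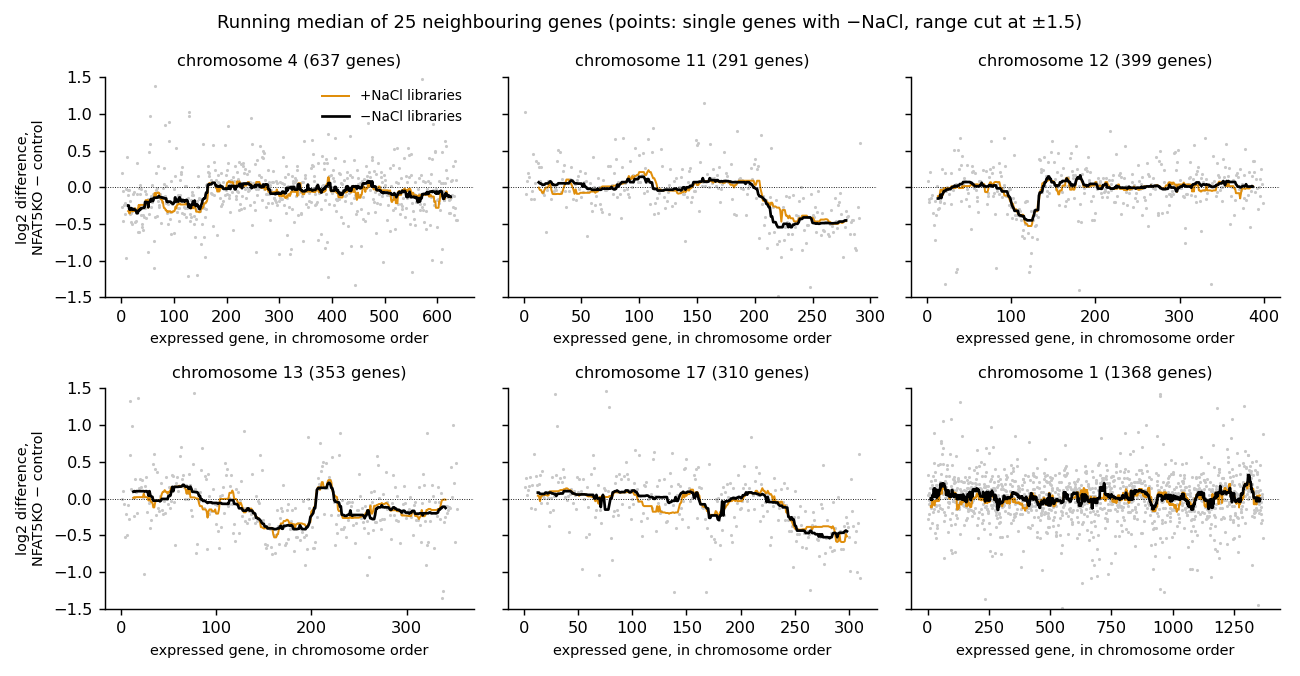
Log2 difference between NFAT5KO and control cells (vertical axis) of genes with a mean of at least 50 in their order along 6 chromosomes (horizontal axis, gene number); points are genes with -NaCl, and lines are running medians of 25 genes with -NaCl (black) and with +NaCl (orange). Both lines drop near the end of chromosomes 11 and 17, where the stretch medians with -NaCl are -0.47 and -0.44, and stay near 0 along most of chromosome 1.

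Most of the baseline difference was also there with +NaCl. In those 6 libraries 5349 of 16724 genes (32%) were called, and edgeR called 5312. Of the 4022 genes called with -NaCl and tested in both media, 3847 (95.6%) had the same sign with +NaCl and 2904 were called in the same direction, which is 72.2% of those called with -NaCl and 54.4% of those called with +NaCl. Another 33 were called in opposite directions. Across 11510 genes, which are not independent replicates and share the cell lines and the counting, the log2 differences had a Pearson r of 0.798 and a Spearman rho of 0.747. Of the 35 most reduced genes all but Uchl3, that is 34, were also called lower with +NaCl. A genotype-by-medium interaction passed for 0 of the 35, against 296 of all 16850 genes tested (1.76%). At that share few or none of 35 genes would pass. Genes near 0 counts also had wide errors of the interaction, such as 0.73 for Spint2. No conclusion is drawn from the 0. Of the ATF4 targets 23 were called lower with +NaCl, with a median of -0.45, and of the ribosomal protein genes 57 were called higher, with a median of 0.40, against 17.3% of all genes called lower and 14.7% called higher there. The tonicity list gave 2 higher and 15 lower with +NaCl, and the DNA replication list 29 higher and 4 lower. Whether these lists differed between the media was not tested.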

How the data were processed

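Poly-A RNA of 12 UMR-106 samples was sequenced, and the 6 libraries with -NaCl were compared, 3 NFAT5KO against 3 control. The deposited signal is a read count per gene divided by 1 factor per library, made by the authors in 1 table per genotype, normalized separately. Aligner and counting tool are not given in the sources used here, and the submitters' processing notes name mm10, a mouse build, although IDs and coordinates are of rat. Column labels conflict with the names of the tables, and the labels were followed. A further 24 columns of per-sample values have headers that match no sample's labels and were not used, nor were the authors' means, fold changes and p values.

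Each column was divided by its smallest step, which gave whole reads for 100% of values within 0.1 read. The tables were joined by gene ID (18058 genes in both). Reads were scaled by TMM over the 6 libraries, and log2(normalized count + 1) was fitted with limma 3.58.1 (R 4.3.3, empirical Bayes with a mean-variance trend) for the 16840 genes of both tables with a mean of at least 1. Fold changes on this scale understate those of low genes. Adjusted p is Benjamini-Hochberg over all genes tested. The +NaCl libraries and the interaction, defined as the genotype difference with +NaCl minus that with -NaCl, were fitted likewise. With 3 against 3, an exact permutation test cannot go below p = 0.10. The code was tested on simulated data.

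Genes are named if they were the target, were named by the study, were among the 15 called genes per direction with the largest difference (mean of at least 50, no overlap between groups) or the 10 most abundant called genes with an absolute log2 difference of at least 1, were among the 4 smallest p values of a list, or the 3 smallest of a window. Gene models without an established symbol, and symbols that had become dates, were counted and not named. Some genes that the rule names are not reported here. Members and lists (41, matched by symbol or RefSeq synonym) were chosen with earlier results of these data known. Same-numbered libraries showed little shared deviation over genes with a mean of at least 50 (correlations 0.06, -0.08 and 0.07). Numbers were therefore not used as pairs. Replicate 3 was nevertheless the highest in both genotypes for the 10 stress genes plotted by library. Alternatives were other scalings, pseudocounts and filters, edgeR 4.0.16, DESeq2 1.42.0, no trend, all 12 libraries, genes of either table, the replicate block and leaving out libraries.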

Additional observations from a re-analysis of the deposited data

Results flagged for a closer look

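The genotype difference of 26 named genes differed between the media, judged by the genotype-by-medium interaction in limma over all 12 libraries (adjusted p under 0.05). The interaction is the NFAT5KO minus control difference with +NaCl less that with -NaCl. It was below 0 for 22 of the 26 and above 0 for 4. The interaction was tested for 216 named genes, and 1.76% of all genes tested passed. Many of the named genes were chosen by their difference with -NaCl, which the interaction subtracts. A smaller difference with +NaCl is therefore partly built in for such genes, and no conclusion is drawn from these counts. In each account the log2 difference with -NaCl comes before that with +NaCl, both NFAT5KO minus control.

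Genes of ion and water handling were among them. Fxyd2 had -2.45 and -7.74 (interaction -5.41, adjusted p = 5.4e-04), with 2 reads in the NFAT5KO and 26 in the control libraries with -NaCl behind the first value. Aqp1 was called higher with -NaCl (0.37) and lower with +NaCl (-0.26), an interaction of -0.62 (adjusted p = 7.1e-04). Outside ion and water handling, the integrin Itga10 had -1.23 and -2.15 (-0.90, adjusted p = 1.8e-04). The IGF-binding protein Igfbp7 had 0.81 and 0.23 (-0.56, adjusted p = 0.024).

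Some matrix genes were among them too. Col6a3 had -1.38 and -2.66 (interaction -1.26, adjusted p = 1.9e-07), Col11a2 -1.71 and -2.60 (-0.89), and Col22a1 -0.98 and -1.49 (-0.50). Mmp13 had 1.88 and 0.90 (-0.96, adjusted p = 0.0010), and Fmod 1.44 and 0.91 (-0.52). Fbln5 had the opposite sign, with 1.52 and 2.08 (interaction 0.58, adjusted p = 0.0022). Tspan11 had 1.04 and 0.33 (-0.70), and Sdc4, a cell-surface proteoglycan, 0.37 and -0.13 (-0.49).

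Bone and mineral genes gave interactions of -0.74 for Spp1 (0.68 and -0.07), -0.82 for Bmp2 (0.59 and -0.24), -0.48 for Enpp1 (0.76 and 0.27), -0.40 for Ankh (-0.12 and -0.53) and -0.54 for Vdr, the vitamin D receptor (-0.52 and -1.07). Bmp2 was called in opposite directions in the media. Sostdc1 had 0.89 and 1.40 (interaction 0.51) and Pdgfa -1.08 and -0.63 (0.46).

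In the other genes the interaction was -0.61 for Nfkbia (-0.04 and -0.66), -0.46 for Nfkb2 (0.59 and 0.12), -0.44 for Eno1 (-0.35 and -0.81), -0.34 for Slc25a1, the mitochondrial citrate carrier (-0.60 and -0.95), and 0.32 for Mcm10 (-0.42 and -0.11). Among markers of other cell types it was -0.97 for Laptm5 (0.26 and -0.72) and -1.11 for Syt1 (0.47 and -0.65). The adjusted p values of the interaction not given above lay between 3.2e-04 (Bmp2) and 0.047 (Syt1).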

How the results depend on the processing

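The 4026 calls with -NaCl (1995 higher and 2031 lower in NFAT5KO cells) numbered 3790 (DESeq2) to 4291 (all 12 libraries in 1 fit) under the other tools, scalings, pseudocounts and filters, and edgeR shared 3871 of its 3937 calls with them. Without the mean-variance trend 2185 genes were called, 1021 higher and 1164 lower. Leaving out 1 library at a time gave 2813 to 3318 calls, 1408 to 1666 higher and 1405 to 1716 lower. Without replicate 3 of both groups, an alternative chosen after seeing the data, there were 2566, 1249 higher and 1317 lower. With the replicate block 4363 genes were called, 2177 higher and 2186 lower. Whether the numbers mark a shared source is not given in the sources used here. NFAT5KO replicate 2 correlated better with control replicate 1 than with its own number. Equal library totals gave 1518 higher and 2479 lower.

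Of the 200 named genes that were called, none changed sign under any alternative run. The call was lost for 22 without the trend, for 6 with DESeq2 (which gave no adjusted p for 2 others), for 6 to 9 without single libraries and for 11 without replicate 3 of both groups, against 0 to 3 under each other setting. Without the trend, a setting added for the lists after seeing the data, the lists lost members unevenly, as given beside the ATF4, chaperone and ribosomal lists. It also left 7 collagen chains higher in place of 12, 6 proteoglycan genes lower in place of 12, 6 Wnt genes higher in place of 11, 4 actin genes higher in place of 9, 5 tonicity genes lower in place of 8 and 0 DNA replication genes higher in place of 5. Genes with few reads, such as Fgf23 and Bglap, are limited by depth.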
